A study of Mus musculus with 3 samples.

Results

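Mature white adipocytes (MWA, titled MA in the labels) were compared with stromal vascular cells (SVC) from the same fat depot, with 1 array for each, which are 2 of the 3 arrays in the series. Both came from the epididymal fat of male C57/BL mice aged 20 weeks by the labels, after digestion with collagenase. SVC were the lower phase of a brief low-speed spin, and MWA were the cells that still floated after a second, faster spin, whose sediment made up the third fraction, the small proliferative adipocytes (SPA). SVC were grown in DMEM to near confluence before RNA was taken, whereas no culture is described for MWA. Cell type and culture therefore cannot be told apart in any value below, and neither can the different dates that the titles of SVC and MWA carry. How many mice were used for an array is not given. Every gene on the arrays was considered, read from the 59305 spots that are not controls. Of 37324 genes read, 23596 were well above background in MWA or SVC. Each group has 1 array, so no difference has a replicate check, no test was run, and all values describe these arrays only.

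Adipocytes store triglyceride in a single large droplet, release fatty acids from it when catecholamines raise cyclic AMP, and rebuild it from fatty acids and glucose under insulin. They secrete hormones such as adiponectin, leptin and resistin, and they do not divide. The stromal vascular fraction holds the remaining cells of fat, which include fibroblast-like adipose progenitors, macrophages, endothelial cells, pericytes, lymphocytes and, in visceral depots, mesothelial cells of the serous lining. In plastic culture the fibroblast-like cells and macrophages attach and the former divide and take on contractile features.

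Levels are given as the log2 of the processed signal relative to the 75th percentile of the signal on the same array, so 0 is the level of that percentile. The signal at that percentile was 430.4 in SVC and 365.8 in MWA. Of the spots, 58.6% in SVC and 61.3% in MWA were well above background by the scanner software, and 0 were saturated. A gene that was not well above background on 1 of the arrays has a bound there, and its ratio is written as at least N-fold. The lowest level of a probe well above background was -4.95 in SVC and -5.15 in MWA. Probes spotted at least 10 times on an array had a median SD of the log2 signal of 0.04 in SVC and 0.05 in MWA, a spread of spots on a single array that leaves out the error of animals and cultures. A level belongs to 1 probe, and levels of different genes were not set against each other.

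In MWA, 1349 genes had a level at least 5-fold above that in SVC, which is 5.72% of the 23596, and 935 genes one at least 5-fold below it, which is 3.96%. Counts of calls in the lists below are to be read beside these shares. Of all the 5-fold calls, 59.1% were in the direction of MWA. Of these, 941 higher and 741 lower genes were read on both arrays, and the others rest on a bound. The higher side reached further than the lower one. At least 100-fold differences were found for 96 genes higher and 17 genes lower in MWA, and at least 1000-fold differences for 19 and 0 genes. Between these extremes, 66.5% of the 20174 genes measured on both arrays lay within 2-fold, and their median log2 ratio of MWA over SVC was -0.07. The 5th and 95th percentiles of these log2 ratios were -2.02 and 2.23. Of protein-coding genes, 7.05% were called higher and 5.04% lower. For long non-coding RNAs the shares were 5.15% and 2.39%. On chromosome X, 2.64% of the genes were called higher, the smallest share of any chromosome listed, and 7.44% on chromosome 6, the largest.

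**Figure D1:**
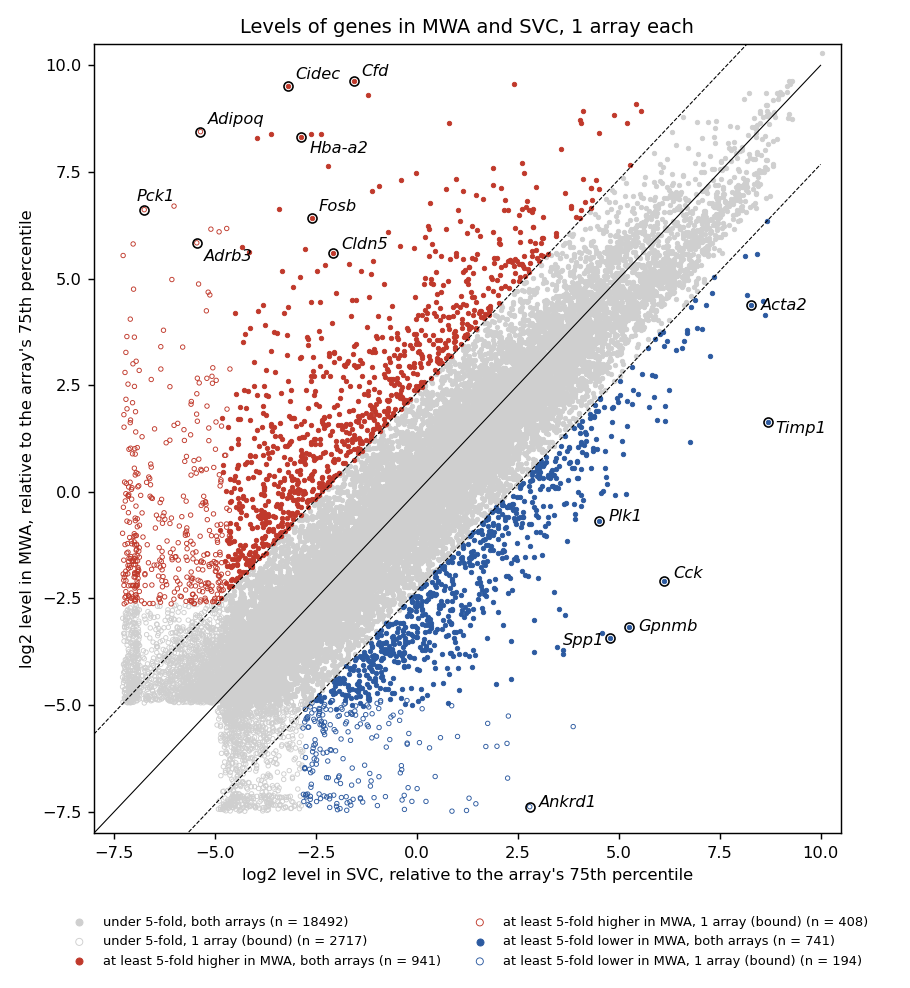
Log2 level of each gene in MWA (vertical axis) and SVC (horizontal axis), 1 array each, in units of log2 over the array's 75th percentile; dashed lines mark 5-fold, and open points are genes well above background on 1 array only, drawn at their own signal. Adipocyte genes such as Adipoq and Cidec lie at the upper left, and Timp1, Cck, Spp1 and Gpnmb at the lower right.

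Genes with several probes allow a check within the arrays. The 6674 genes with at least 2 probes measured on both arrays had a median range of 0.43 between the log2 ratios of their probes. Of the 270 such genes called higher, 162 had every such probe past 5-fold and 246 had every one of the same sign. Of the 213 called lower, 109 had every probe past 5-fold and 196 had every one of the same sign. A bound holds for the probe read and not for every probe of a gene. Of the 408 higher calls that rest on a bound, 10 had another probe read on both arrays, which was past 5-fold throughout in 4 and of the opposite sign in 3. Of the 194 lower ones, 10 had such a probe, past 5-fold throughout in 2 and of the opposite sign in 3.

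The labels were set against the defining markers of each cell type. All 8 adipocyte markers (Adipoq, Lep, Plin1, Cidec, Lipe, Pnpla2, Fabp4 and Cfd) were well above background in MWA and at least 5-fold higher there. In SVC, 6 of the 8 were well above background at the probe read, the exceptions being Adipoq and Plin1, of which Plin1 had another probe well above background there. The 7 fibroblast and progenitor markers and the 5 macrophage markers were well above background in both. The log2 of their summed levels was 7.09 in SVC and 8.13 in MWA for the fibroblast markers, and 6.67 and 5.83 for the macrophage markers. Markers of vessels and blood were higher in MWA. Summed log2 levels of the 4 endothelial markers were 1.00 in SVC and 4.73 in MWA, and those of the 4 pericyte markers 1.82 and 4.75. A sum covers only markers well above background on that array, which for red cells were 1 of 3 in SVC and all 3 in MWA. The red cell value was -2.63 in SVC, from Hba-a1 alone, and 8.42 in MWA. Both arrays thus hold transcripts of several cell types. In bulk RNA, fewer cells of a type and less RNA per cell cannot be told apart, and the part of other cell types in the differences below was not tested. Of the 16 genes of epididymal epithelium, 3 were well above background on either array, and its defining markers Lcn5, Gpx5 and Crisp1 were not.

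**Figure D2:**
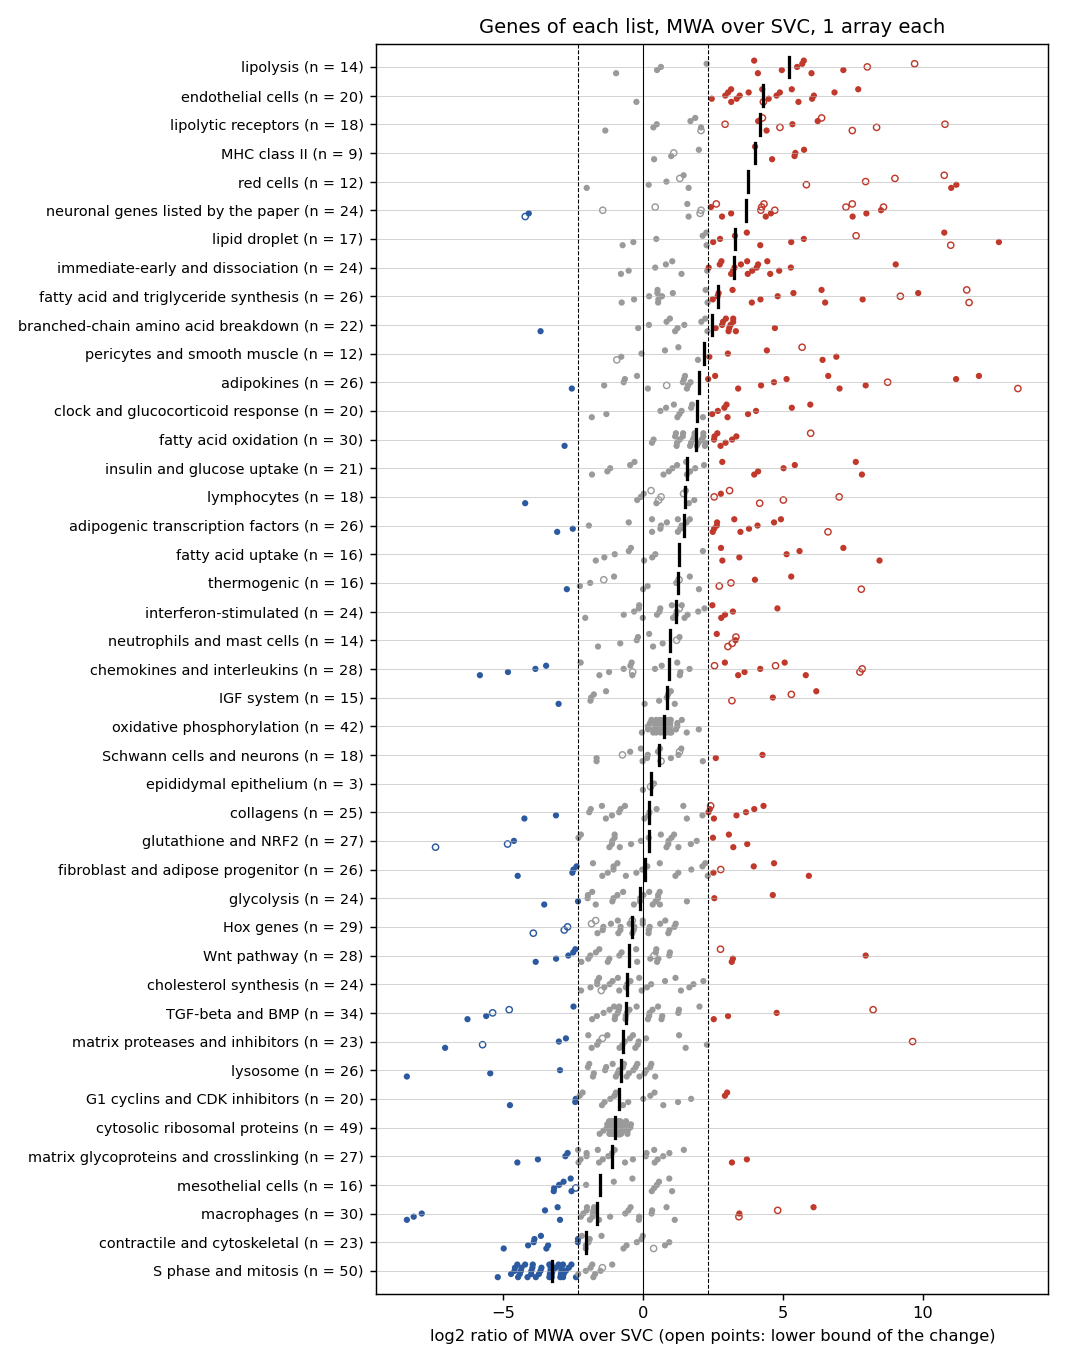
Log2 ratio of MWA over SVC for the genes of 43 lists, ordered by the median (black bar); red and blue points are at least 5-fold higher and lower, open points are lower bounds of the change, and dashed lines mark 5-fold. Lipolysis stands at the top with a median of 5.23 and S phase and mitosis at the bottom with -3.27.

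Of 26 adipokine genes measured, 13 were called higher in MWA and 1 lower, with a median log2 ratio of 2.01. Over the 23 measured on both arrays the median was 1.70, against -0.07 for all genes so measured. Medians of this and the other lists include bounds unless said otherwise. The level of Adipoq, which encodes adiponectin, was 8.44 in MWA and not well above background in SVC, at least 10784-fold higher. It was the largest bound among all genes. Retn, which encodes resistin, stood at -3.61 in SVC and 8.39 in MWA, 4106-fold higher, and its other probe gave a log2 ratio of 12.07. Cfd, the complement factor D or adipsin, stood at -1.56 and 9.63, 2333-fold higher, although the local background of its spots was marked as outlying on both arrays. The ratio of Lep, the gene of leptin, was smaller than those of these 3 genes, from -1.36 in SVC to 0.96 in MWA, 5.02-fold higher and at the limit. Agt, which encodes angiotensinogen, had a log2 ratio of 7.02, and Nrg4 was 98.2-fold and Rbp4, a retinol carrier of the blood, 25.6-fold higher. Il6 was 10.6-fold higher at levels of 0.97 and 4.37. Ccl2, a chemokine of monocytes, stood at 7.36 in SVC and 6.67 in MWA. Lcn2, a siderophore-binding lipocalin, was the member called lower, at 2.80 in SVC and 0.26 in MWA.

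The TATA box, at which transcription of some genes is set to start, was looked for in the promoters of the adipokine genes, to show where those genes begin. Promoters came from RefSeq on GRCm38.p6, from 250 bases before to 50 after the start of a gene, and 22 of the 27 listed genes had an entry. The letters TATAAA on either strand were found in 5 of the 23 promoters of these 22 genes, or 21.7%, beside 13.6% of all 32851 promoters of the table. The 120 bases before the start of Agt (chr8:124569707-124569826, minus strand, log2 ratio 7.02) and of Rbp4 (chr19:38124812-38124931, minus strand, ratio 25.6-fold) are given with the motif in capitals. It begins 30 and 28 bases before the start. Fgf21 and Tnf, with log2 ratios of 2.58 and 1.61, held it 28 and 29 bases before theirs. A link between this motif and the ratios was not tested.
Agt: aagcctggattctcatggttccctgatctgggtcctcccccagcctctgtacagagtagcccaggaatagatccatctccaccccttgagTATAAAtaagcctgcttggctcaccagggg
Rbp4: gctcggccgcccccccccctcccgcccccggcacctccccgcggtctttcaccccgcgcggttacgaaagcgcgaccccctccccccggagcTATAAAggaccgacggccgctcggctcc

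Of 17 genes of coat and structural proteins of the lipid droplet, 11 were called higher and 0 lower, with a median log2 ratio of 3.29. Cidec, which fuses droplets into a single one, stood at -3.20 in SVC and 9.51 in MWA. This 6735-fold difference was the largest of any gene measured on both arrays. Plin4, a perilipin of adipocyte droplets, stood at -2.38 and 8.38, 1741-fold higher. Plin1, the perilipin that guards the droplet against lipases, stood at 6.10 in MWA and was not well above background in SVC, at least 2043-fold higher at its brightest probe. Another probe of Plin1, measured on both arrays, gave a log2 ratio of 3.67. Plin5 was at least 196-fold higher and Cidea 39.3-fold. Cav1 and Cav2, which form caveolae, were 13.1-fold and 18.2-fold higher, with an outlying local background for Cav1 in MWA. By contrast Plin2 stood at 5.34 in SVC and 5.81 in MWA, and Plin3 at 3.90 and 3.56, both under 2-fold.

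The lipolytic machinery gave the highest median of any list. Of 14 genes measured, 10 were called higher and 0 lower, and the median log2 ratio was 5.23. The lipases act in sequence. Pnpla2, the adipose triglyceride lipase, stood at 1.90 in SVC and 7.59 in MWA, 51.7-fold higher. Lipe, the hormone-sensitive lipase, stood at -3.74 and 2.28, 64.9-fold higher. Mgll, the monoglyceride lipase, stood at 1.46 and 6.96, 45.5-fold higher. G0s2, an inhibitor of Pnpla2, was 53.7-fold higher, whereas Abhd5, its activator, was 4.83-fold higher, just under the limit. Of the carboxylesterases, Ces1d was higher by a bound of 835-fold and Ces1f by one of 259-fold. Fabp4, which carries the fatty acids released, stood at 2.41 and 9.57, 143-fold higher. Of protein kinase A, the regulatory subunit Prkar2b was 15.7-fold higher, the catalytic subunit Prkaca 1.56-fold higher and the regulatory subunit Prkar1a 1.95-fold lower. Pde3b, the phosphodiesterase through which insulin restrains lipolysis, was 31.1-fold higher, at levels of -0.61 and 4.35.

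The list of receptors that raise or restrain lipolysis also holds the adenylyl cyclases Adcy5 and Adcy6 and the G proteins Gnai1 and Gnas. Of 18 genes, all 18 were well above background in MWA and 10 in SVC, 11 were called higher and 0 lower, with a median log2 ratio of 4.19. Among the receptors that raise cyclic AMP, Adrb3 was at 5.84 in MWA and its bound was 1772-fold higher. Adrb1 was at least 7.64-fold higher. Among receptors that lower cyclic AMP, Adora1, for adenosine, was at least 178-fold higher, Ptger3, for prostaglandin E, at least 83.4-fold, Ffar2 at least 326-fold, Hcar2, for nicotinic acid and ketone bodies, 40.5-fold and Hcar1, for lactate, at least 19.2-fold. Npr3, which clears natriuretic peptides, stood at -1.13 in SVC and 5.12 in MWA, 75.7-fold higher, with 2.16 on the log2 scale at another probe. Npr1, the signalling receptor for those peptides, was at least 4.21-fold higher. Adra2a, through which catecholamines lower it, was 1.41-fold higher, under the limit. The exception in sign was Npy1r, for neuropeptide Y, at -1.47 in SVC and -2.82 in MWA, 2.55-fold lower.

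Of 16 genes of fatty acid uptake, 7 were called higher and 0 lower, with a median log2 ratio of 1.29. Lpl, which frees fatty acids from lipoproteins, stood at 5.21 in SVC and 8.66 in MWA, 10.9-fold higher, but the log2 ratios of its 6 probes ran from -0.69 to 3.74. Cd36 was 6.90-fold higher and Slc27a1, a fatty acid transporter, 7.14-fold. Gpihbp1, which capillary endothelial cells make to hold Lpl in place, was 349.98-fold higher, at -2.76 and 5.69, beside the endothelial markers given above. Of the acyl-CoA synthetases, Acsl1 stood at 1.01 and 6.60, 48.3-fold higher, while Acsl4 was 3.22-fold lower, and Acsl5 was 2.01-fold lower with 0.33 on the log2 scale at its other probe.

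Of 26 genes of fatty acid and triglyceride synthesis, 15 were called higher and 0 lower, and the median log2 ratio was 2.68. Of the steps that build glycerol phosphate and triglyceride, Pck1, which makes phosphoenolpyruvate for glycerol synthesis, was at 6.62 in MWA and at least 3037-fold higher. Gpd1, the glycerol phosphate dehydrogenase, stood at -2.19 and 7.64, 912-fold higher. Dgat2, which adds the last fatty acid, stood at 0.79 and 8.64, 230.4-fold higher, and Dgat1 was 18.3-fold higher. Agpat2 was 28.1-fold and Lpin1 41.5-fold higher. In fatty acid synthesis, Thrsp, a lipogenic nuclear protein, was at least 3218-fold higher. Scd1, a desaturase, stood at 0.96 and 7.34, 83.3-fold higher, and Fasn, the fatty acid synthase, at 4.51 and 8.40, 14.8-fold higher. Acly, which makes acetyl-CoA from citrate, was 1.45-fold higher, Elovl6 1.43-fold and Acacb 1.16-fold, all under the limit, and Scd2 was 1.25-fold lower. Another probe of Acacb gave a log2 ratio of 6.16.

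For glucose, the insulin-dependent transporter and the basal one went in opposite directions. Slc2a4, the gene of GLUT4, stood at -2.28 in SVC and 5.32 in MWA, 195-fold higher. Slc2a1, the gene of GLUT1, stood at 3.20 and 1.38, 3.54-fold lower. Of 21 genes of insulin signalling and glucose uptake, 7 were called higher and 0 lower, with a median log2 ratio of 1.57. Trarg1, which travels with GLUT4 vesicles, was 226-fold higher. Irs3 and Irs2, adaptors of the insulin receptor, were 32.5-fold and 17.3-fold higher, Irs1 2.07-fold and the receptor Insr 3.64-fold. Of the kinases downstream, Akt2 stood at 3.88 and 5.56, 3.21-fold higher, and Akt1 at 5.20 and 4.02, 2.26-fold lower, although the log2 ratios of the 3 probes of Akt1 ran from -2.41 to 0.38. Of 24 genes of glycolysis, 2 were called higher and 2 lower, and the median log2 ratio was -0.11. Each count is 8.33% of the list, near the 5.72% higher and 3.96% lower of all genes. Pfkfb3, which makes the activator of phosphofructokinase, was 24.9-fold higher and Ldhb 5.85-fold. Slc16a3, which exports lactate, stood at 4.07 and 0.54, 11.6-fold lower, and Pkm, the pyruvate kinase, at 7.36 and 5.04, 5.01-fold lower. Gapdh, often used as a reference gene, stood at 8.66 and 7.57, 2.14-fold lower.

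**Figure D3:**
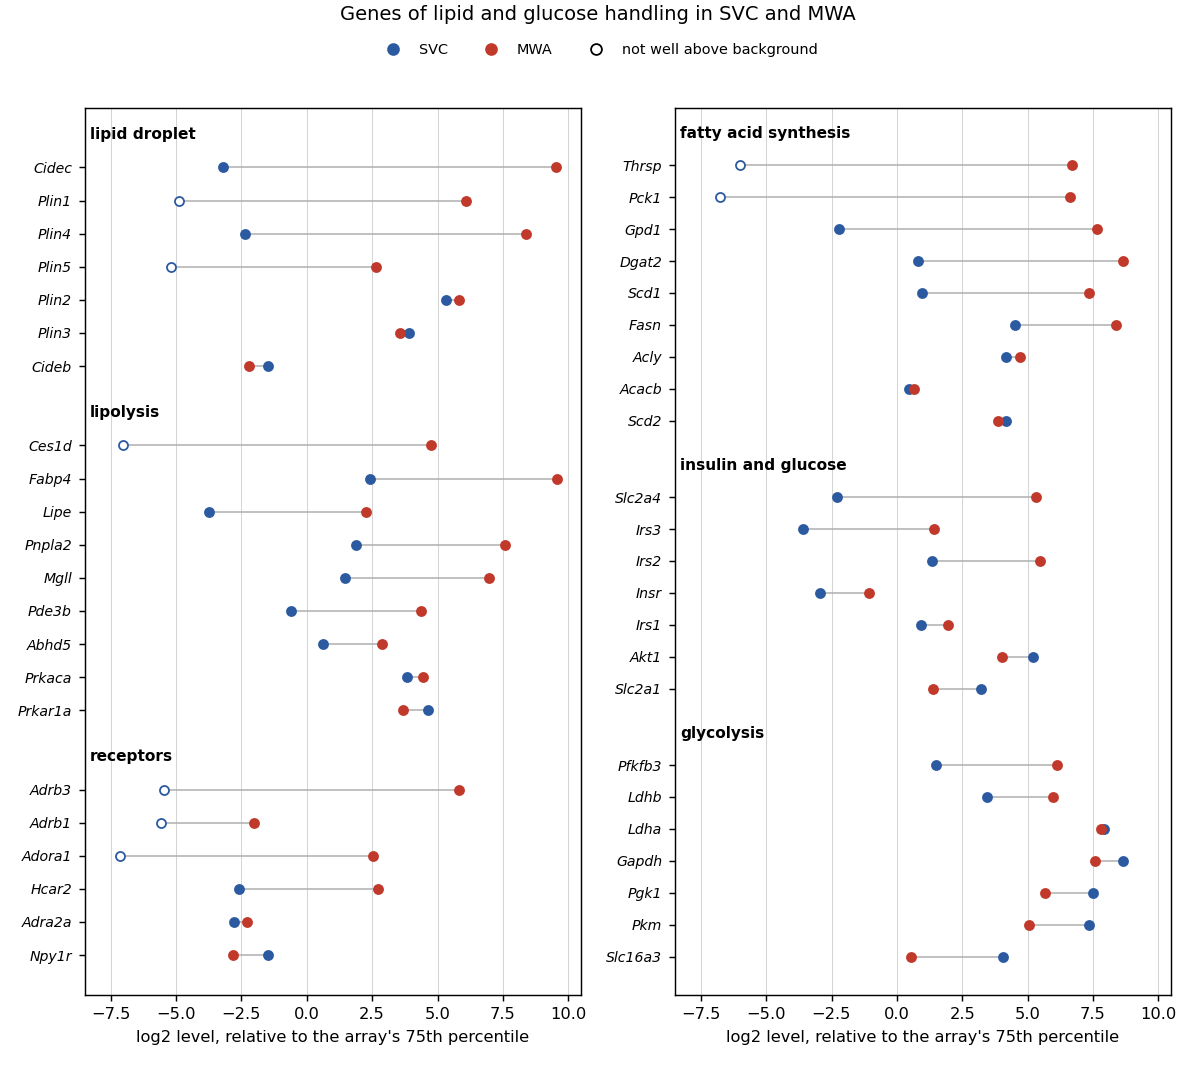
Log2 level of genes of lipid and glucose handling in SVC (blue) and MWA (red), 1 array each, in units of log2 over the array's 75th percentile; open points were not well above background. Cidec, Plin1, Plin4, Ces1d, Adrb3, Thrsp and Pck1 have the widest gaps, while Plin2, Plin3, Acly and Ldha lie close together.

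Of 26 transcription factors of adipocytes, 11 were called higher and 2 lower, with a median log2 ratio of 1.47. Pparg, the main regulator of fat cell differentiation, stood at 1.49 in SVC and 5.58 in MWA, 17.1-fold higher, and Cebpa at 1.08 and 4.34, 9.59-fold higher. Rxrg, of the dimer partners of Pparg, was at least 97.6-fold higher and Rxra 2.94-fold. Ppara was 30.5-fold, Klf15 13.8-fold, Nr1h3, an oxysterol receptor, 11.2-fold and Srebf1 5.63-fold higher. Zfp423, which is known both in preadipocytes and in keeping adipocytes white, stood at -3.38 and 1.30, 25.7-fold higher. Cebpb stood at 4.12 and 4.74 and Cebpd, its companion early in differentiation, at 4.43 and 5.68, while Klf4 was 5.82-fold higher. Gata3 and Gata2, which restrain differentiation, were 5.70-fold and 3.82-fold lower, and Klf5 stood at 0.20 and -2.87, 8.38-fold lower.

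Mitochondrial genes were shifted as groups with few calls. All 42 subunits of oxidative phosphorylation were well above background on both arrays, and 0 were past 5-fold in either direction. Their log2 ratios ran from -0.04 for Cox5a to 1.99 for Ndufb3, with a median of 0.76, and 41 of the 42 were positive. Of 30 genes of fatty acid oxidation, 8 were called higher and 1 lower, the median log2 ratio was 1.88, and 29 of the 30 were positive. Acadm, a dehydrogenase of medium chains, stood at 2.09 in SVC and 5.27 in MWA, 9.08-fold higher. Cpt2 was 5.87-fold higher. Cpt1a, the carnitine transferase of the outer membrane, stood at 2.35 and 2.73, 1.30-fold higher. Acot1, a thioesterase, was the exception, at 0.28 and -2.52, 6.99-fold lower.

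Of 22 genes of branched-chain amino acid breakdown, 11 were called higher and 1 lower, and the median log2 ratio was 2.45. The isoenzymes of the first step differed in sign. Bcat2, the mitochondrial transaminase, stood at 0.14 in SVC and 3.19 in MWA, 8.31-fold higher, while Bcat1, the cytosolic one, stood at 3.99 and 0.33, 12.7-fold lower, with -1.98 on the log2 scale at the mildest of its 4 probes. Of the dehydrogenase complex, Bckdha and Bckdhb were 8.74-fold and 7.79-fold higher. Dbt and Dld, of the same complex, were 2.78-fold and 2.35-fold higher, under the limit. Aldh6a1, of valine breakdown, stood at 0.17 and 4.88, 26.2-fold higher. The kinase Bckdk, which switches the dehydrogenase off, stood at 1.95 and 1.78.

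Of 20 genes tied to heat production, 16 could be read, 5 were called higher and 1 lower, with a median log2 ratio of 1.24. Ucp1, the uncoupling protein of brown fat, was at -2.23 in MWA and not well above background in SVC, at least 6.61-fold higher. Ppargc1a was at -1.81 in MWA and at least 8.83-fold higher. Cox8b was at 2.85 and at least 223-fold higher. With the normexp correction, or with genes read on both arrays only, the 5 became 2, and Ucp1 and Ppargc1a had log2 ratios of 1.10 and 1.30 with normexp. The member called lower was Slc6a8, the creatine transporter, with a log2 ratio of -2.72. Dio2, which makes active thyroid hormone, stood at -1.54 in SVC and -3.80 in MWA, 4.78-fold lower. Of 24 genes of cholesterol synthesis, 0 were called in either direction, and the median log2 ratio was -0.59. Sqle stood lowest, at 3.17 and 0.95, 4.64-fold lower, and Insig1, which holds the pathway back, highest, at -0.67 and 1.49, 4.46-fold higher.

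Cell division was on the side of SVC. Of 50 genes of S phase and mitosis, 41 were called lower in MWA and 0 higher, against 3.96% and 5.72% of all genes. All 50 log2 ratios were negative, with a median of -3.27. The widest difference was at a mitotic gene. Plk1, a mitotic kinase, stood at 4.52 in SVC and -0.67 in MWA, 36.5-fold lower. Kif20a was 26.3-fold, Cdc20, which activates the anaphase-promoting complex, 24.1-fold and Ccnb1, the mitotic cyclin, 23.9-fold lower. Mki67 stood at 4.06 and 1.13, 7.65-fold lower, and Top2a at 3.30 and -0.33, 12.4-fold lower. Genes of DNA replication fell on either side of the limit. Rrm2, of ribonucleotide reductase, stood at 4.69 and 0.34, 20.3-fold lower, and the helicase subunits Mcm2, Mcm3, Mcm5, Mcm6 and Mcm7 were between 5.26-fold and 9.36-fold lower. Mcm4, at 4.97-fold, was just under it. Pcna, the sliding clamp that also serves in repair, stood at 4.42 and 2.90, 2.86-fold lower. All 50 were well above background in SVC and 49 in MWA, so MWA held readable transcripts of division genes too.

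Promoters of these genes are given because 2 short elements, the CCAAT box and the element TTTGAA, are known from genes of late cell cycle. Of the 50 genes, 38 had a promoter in the table, which is under 80%, so a share over the list would be void and is not given. Over all promoters of the table, 37.4% held CCAAT, 17.9% held TTTGAA and 6.95% held both, on either strand. The 120 bases before the start of 3 genes that held both within that stretch are given with the motifs in capitals, where ATTGG and TTCAAA are the same motifs on the other strand. They are Cdc20 (chr4:118437344-118437463, minus strand), Cdk1 (chr10:69352913-69353032, minus strand), the kinase of mitotic entry, 12.7-fold lower in MWA, and Top2a (chr11:99024190-99024309, minus strand), on GRCm38.p6. The TTTGAA nearest to the start begins 18 bases before it in Cdc20, 15 in Cdk1 and 23 in Top2a.
Cdc20: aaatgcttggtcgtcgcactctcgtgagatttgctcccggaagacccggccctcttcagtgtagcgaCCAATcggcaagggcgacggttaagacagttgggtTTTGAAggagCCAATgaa
Cdk1: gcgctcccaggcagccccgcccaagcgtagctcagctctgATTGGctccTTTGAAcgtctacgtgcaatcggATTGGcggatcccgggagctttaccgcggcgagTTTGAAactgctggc
Top2a: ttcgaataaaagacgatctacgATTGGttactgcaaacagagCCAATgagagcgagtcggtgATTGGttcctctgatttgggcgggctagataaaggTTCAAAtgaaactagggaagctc

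Regulators of G1 were mixed. Of 20 genes, 2 were called higher and 3 lower, with a median log2 ratio of -0.84. Cdkn2a, whose products restrain cyclin-dependent kinases and stabilize Trp53, stood at 0.90 in SVC and -3.86 in MWA, 27.0-fold lower. Cdk4 and Cdk6, the kinases it restrains, were 5.29-fold and 5.36-fold lower, and their cyclin Ccnd1 4.80-fold. Inhibitors differed among themselves. Cdkn1c stood at 0.13 and 3.14, 8.03-fold higher, and Cdkn2c at 1.26 and 4.19, also higher. Cdkn1a, a target of Trp53, was 1.44-fold lower, Cdkn2b 2.03-fold and Cdkn2d 1.96-fold, and Cdkn1b was 1.33-fold higher, all under the limit.

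Contractile and cytoskeletal genes were lower in MWA as a group. Of 23 genes measured, 9 were called lower and 0 higher, with a median log2 ratio of -2.04. Acta2, the smooth muscle actin that marks activated fibroblasts, stood at 8.29 in SVC and 4.38 in MWA, 14.99-fold lower, with -1.98 on the log2 scale at the mildest of its 3 probes. Tagln stood at 8.58 and 4.48, 17.2-fold lower, and Cnn1 at 4.92 and -0.06, 31.5-fold lower. Tpm1, Tpm2 and Actn1, of actin filaments, were 10.497-fold, 12.5-fold and 14.7-fold lower, although the log2 ratios of the 4 probes of Tpm1 ran from -3.48 to 0.46. Myh11, the myosin of mature smooth muscle, stood at -0.67 and 0.11, 1.72-fold higher, and Vim, found in all mesenchymal cells, at 7.07 and 6.85. Outside the list, Ccn2, the connective tissue growth factor, stood at 5.75 and 1.99, 13.5-fold lower, and Ankrd1 at 2.79 in SVC, at least 246-fold lower in MWA, whereas Ccn1, a relative of Ccn2, stood at 4.04 and 4.14. The CArG box, to which serum response factor binds, was looked for in the promoters of the contractile list, of which 19 of 24 genes had an entry, under 80%, so no share is given. It was found in 1.63% of all promoters. The 120 bases before the start of Cnn2 (chr10:79988480-79988599, plus strand, GRCm38.p6), which was 10.96-fold lower in MWA, hold it 56 bases before the start. Srf, of the same list, held the box 82 and 62 bases before its start and had a positive log2 ratio, 0.94. A link between the box and the ratios was not tested.
Cnn2: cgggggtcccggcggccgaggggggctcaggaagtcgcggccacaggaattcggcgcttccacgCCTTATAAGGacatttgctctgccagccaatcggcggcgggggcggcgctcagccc

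Of 25 collagen chains, 8 were called higher and 2 lower, with a median log2 ratio of 0.23. Of the 6 collagen IV chains, which form the network of basement membranes, 3 were called higher, among them Col4a1 at 5.06-fold and Col4a2 at 5.24-fold, while Col4a5 and Col4a6 had log2 ratios of -0.80 and -0.85. Col6a1, Col6a2 and Col6a3, of collagen VI, which surrounds adipocytes, were 10.1-fold, 12.8-fold and 5.79-fold higher. The local background of Col6a1 was marked as outlying on both arrays. Col15a1 stood at -3.13 in SVC and 1.17 in MWA, 19.8-fold higher, and Col5a3 at 1.29 and 5.27, 15.7-fold higher. Chains of collagens I and III were under 5-fold. Col1a1 stood at 6.85 and 5.38, 2.77-fold lower, Col1a2 at 8.15 and 7.50 and Col3a1 at 5.54 and 6.98, 2.71-fold higher. The probes of these chains disagreed, with log2 ratios from -3.97 to 1.44 for the 3 probes of Col3a1 and from -5.19 to -0.65 for the 3 of Col1a2 read on both arrays. Col12a1 stood at 0.96 and -3.28, 18.9-fold lower, and Col11a1, a fibrillar chain, was 8.64-fold lower.

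Of 27 matrix glycoproteins and crosslinking enzymes, 2 (7.41%) were called higher and 4 (14.8%) lower, beside 5.72% and 3.96% of all genes. Their median log2 ratio was -1.10. Lox, which crosslinks collagen, stood at 6.15 in SVC and 1.66 in MWA, 22.5-fold lower, and Plod2, which prepares such crosslinks, was 6.47-fold lower. Fbln2 was 6.84-fold lower. Eln, the gene of elastin, and Lum, of the proteoglycan lumican, were 13.1-fold and 9.05-fold higher. Sparc, a collagen-binding protein, stood at 9.21 and 9.62, under 2-fold. Among 23 proteases and inhibitors, 1 (4.35%) was called higher and 4 (17.4%) lower, with a median log2 ratio of -0.73. The inhibitors of metalloproteinases diverged. Timp1 stood at 8.70 in SVC and 1.63 in MWA, 135-fold lower. Timp4 stood at 4.68 in MWA and was not well above background in SVC at its brightest probe, at least 795-fold higher, and another probe, read on both arrays, gave a log2 ratio of 8.40. Timp2 and Timp3 were both under 2-fold, at 6.68 and 6.52 for Timp2 and at 5.60 and 5.33 for Timp3. Mmp3 was at least 53.2-fold lower in MWA and Mmp14 8.04-fold lower.

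Markers of fibroblasts and adipose progenitors did not fall together. Of 26 genes measured, 5 were called higher and 4 lower, and 13 ratios were positive and 13 negative, with a median log2 ratio of 0.06. Dpt, a matrix protein of progenitors in tissue, stood at -3.68 in SVC and 2.25 in MWA, 60.8-fold higher. Gsn was 15.5-fold and Pi16, of an interstitial progenitor population, 5.72-fold higher. Cd34 stood at 3.32 and 5.54, 4.67-fold higher. On the other side, Pdgfra, the growth factor receptor that defines adipose progenitors, stood at 3.01 and 0.49, 5.76-fold lower, and Cd44 was 5.19-fold lower, with log2 ratios from -3.15 to 0.26 at its probes. S100a4 stood at 8.61 and 4.14, 22.3-fold lower. Ly6a, the gene of Sca-1, stood at 4.53 and 4.68, and Thy1 at 4.17 and 4.14. For the mesothelial list, 7 of 16 genes were called lower and 0 higher, with a median log2 ratio of -1.54. The genes called lower included the keratins Krt7, Krt8 and Krt18, at 7.15-fold, 5.88-fold and 9.04-fold, and Pdpn at 9.13-fold. The defining markers Msln, Upk3b, Lrrn4, Krt19 and Wt1 were all under 5-fold, with Msln at 2.96 in SVC and 3.36 in MWA, and their summed log2 levels were 4.25 and 4.28.

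Macrophage genes did not move as a block. Of 30 genes, 4 were called higher and 6 lower in MWA, and the median log2 ratio was -1.66. Csf1r, the receptor of the growth factor CSF1, stood at 5.11 in SVC and 4.97 in MWA, Ptprc, of all leukocytes, at 1.84 and 1.71, and Mrc1 at 1.98 and 2.31. Adgre1, a surface antigen of macrophages, and Cd68 were 3.73-fold and 4.67-fold lower. Among those called lower, Gpnmb, known from lipid-laden macrophages, stood at 5.26 and -3.18, 347-fold lower, which was the largest decrease among genes measured on both arrays. Spp1, the gene of osteopontin, stood at 4.78 and -3.42, 293-fold lower. Mmp12, the macrophage elastase, stood at 4.59 and -3.32, 240.1-fold lower, and Trem2 at 4.82 and 1.31, 11.3-fold lower. Among those called higher, Cd163, the haemoglobin scavenger receptor, stood at -4.39 and 1.70, 68.3-fold higher, Lyve1 was at least 28.1-fold higher and Timd4 at least 10.8-fold, the last with a log2 ratio of 1.71 under the normexp correction. The fourth member called higher was Lpl, which adipocytes express as well.

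Lysosomal genes were lower with few calls. Of 26 genes, 3 were called lower and 0 higher, a median log2 ratio at -0.78, and 21 negative ratios. The 3 were Gpnmb, Ctss at 7.82-fold and Atp6v0d2, a subunit of the proton pump known from osteoclasts and macrophages, which stood at 1.36 and -4.10, 44.0-fold lower. Ctsd, a cathepsin of all cells, was 2.56-fold lower.

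Class II antigen presentation went the other way. All 9 genes were higher in MWA in sign, 5 were called, and the median log2 ratio was 4.004. H2-Eb1 stood at 0.21 in SVC and 5.97 in MWA, 54.0-fold higher. H2-Ab1 stood at 0.37 and 5.82, 43.5-fold higher, H2-Aa was 42.7-fold and the invariant chain Cd74 24.5-fold higher. Ciita, the transactivator of the class, stood at -4.42 and -0.41, 16.04-fold higher, though another probe of it gave a log2 ratio of 0.80. Of 18 lymphocyte genes that could be read, 6 were called higher and 1 lower, with a median log2 ratio of 1.49. Gzma and Nkg7, of cytotoxic cells, were higher by bounds of 129-fold and 32.3-fold. Il7r was the one called lower, at 1.94 and -2.27, 18.5-fold. Of the 18 ratios, 15 were positive and 3 negative, and 2 of the 4 defining markers were called higher. The other two, Cd3e and Ms4a1, stood at 1.76 and -4.03 in SVC and at 1.79 and -4.24 in MWA, but Ms4a1 had a log2 ratio of 2.60 without spots of outlying local background. With the normexp correction 2 genes of the list were called higher.

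Endothelial genes had the largest share called higher of any list. Of 20 genes, 19 were called higher and 0 lower, with a median log2 ratio of 4.28. Cldn5, of tight junctions, stood at -2.09 in SVC and 5.60 in MWA, 207-fold higher. Cdh5, the cadherin of endothelium, stood at -2.05 and 3.27, 39.8-fold higher, Kdr, the receptor of VEGF, was 13.7-fold and Pecam1 8.23-fold higher. Eng, which fibroblasts and macrophages also carry, stood at 1.99 and 1.76. Pericyte and smooth muscle genes were called higher in 6 of 12 cases and lower in 0, with a median log2 ratio of 2.17. Rgs5 stood at -3.61 and 3.30, 120.1-fold higher. Kcnj8 and Abcc9, the subunits of the potassium channel of pericytes, were 85.4-fold and at least 51.5-fold higher. Of 12 red cell genes, 6 were called higher and 0 lower, with a median log2 ratio of 3.73. Hba-a2 and Hba-a1 stood at -2.88 and -2.63 in SVC and at 8.32 and 8.38 in MWA, 2348-fold and 2066-fold higher. These genes are near-identical copies, as are those of beta globin, so the signals cannot be assigned to a single copy. Hbb-bt was at least 1740-fold higher and Alas2, of haem synthesis in red cells, at least 57.2-fold.

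Of 14 genes of neutrophils and mast cells, 5 were called higher and 0 lower, with a median log2 ratio of 0.95. Cma1 and Mcpt4, the chymases of mast cells, were higher by bounds of 9.11-fold and 8.19-fold, at levels of -1.77 and -1.92 in MWA. With the normexp correction 0 of the 14 were called, and Cma1 and Mcpt4 had log2 ratios of 1.32 and 1.28. Of 18 genes of Schwann cells and neurons, 2 (11.1%) were called higher, beside 5.72% of all genes, and 0 lower. Their median log2 ratio was 0.57. S100b, which adipocytes express too, was 19.3-fold and Ngfr 6.07-fold higher. The defining marker Sox10 was dim, at -4.40 in SVC and -3.80 in MWA.

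**Figure D4:**
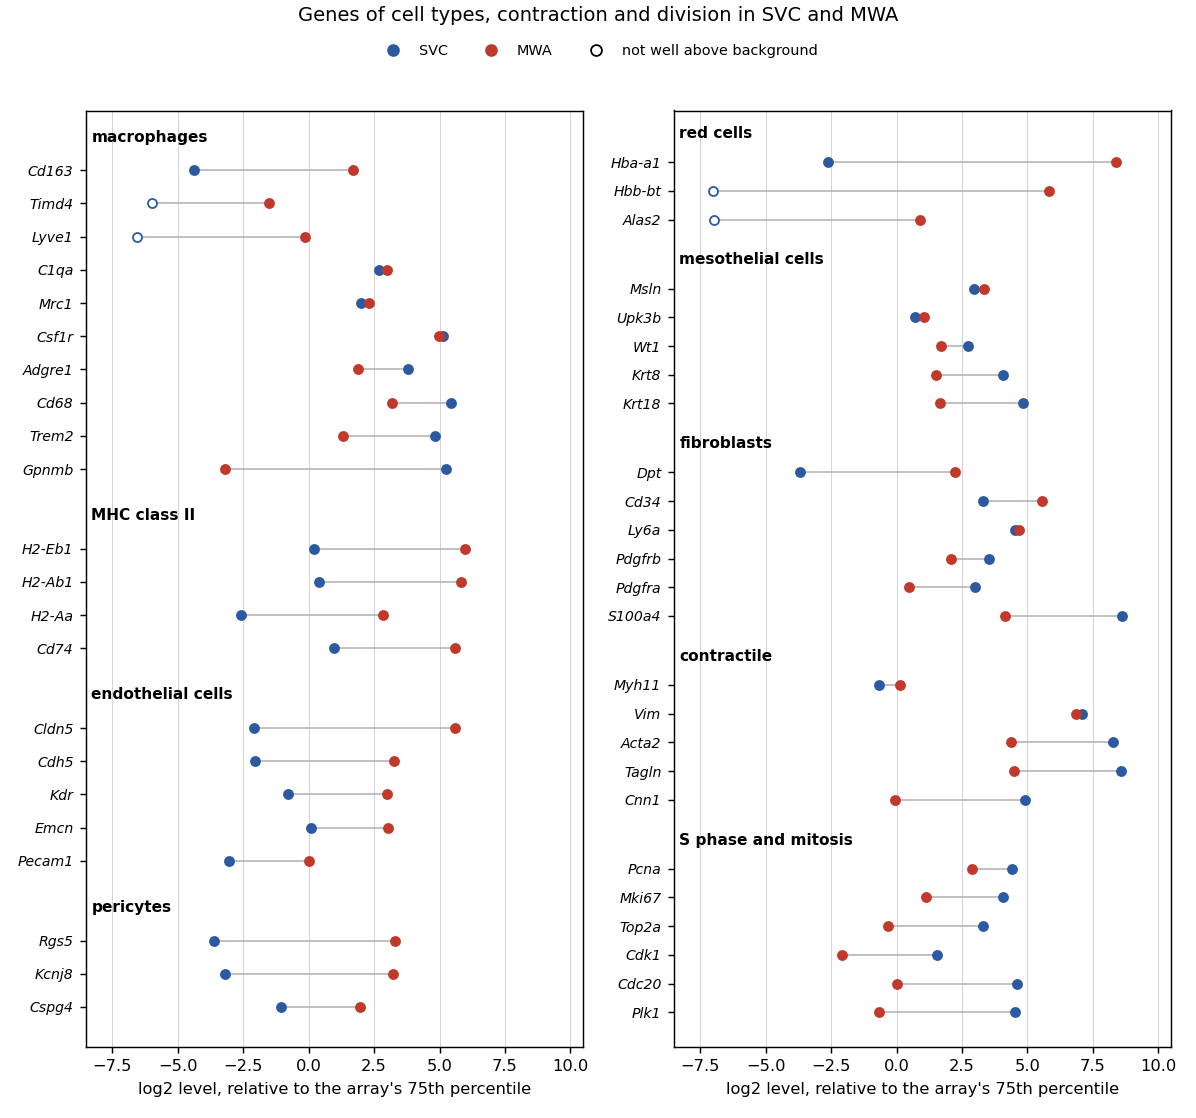
Log2 level of genes of other cell types, of contraction and of division in SVC (blue) and MWA (red), 1 array each, in units of log2 over the array's 75th percentile; open points were not well above background. Among macrophage genes Cd163 and Gpnmb lie on opposite sides, endothelial genes are higher in MWA, and genes of division and contraction, other than Myh11, are higher in SVC.

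Immediate-early genes, which respond within minutes to growth factors and to the dissociation of tissue, were high in MWA. Of 24 genes, 17 were called higher and 0 lower, with a median log2 ratio of 3.24. Fosb stood at -2.60 in SVC and 6.43 in MWA, 523-fold higher. Fos stood at 1.37 and 6.24, 29.2-fold higher, Egr1 at 2.03 and 5.93, 14.95-fold higher, and Nr4a1 at 2.17 and 6.61, 21.7-fold higher. Zfp36, which destabilizes cytokine messengers, was 38.9-fold and Socs3 13.4-fold higher. The heat shock gene Hspa1a was 13.2-fold higher, while Fosl1 stood at 0.30 and -0.49. Because MWA were taken without a described culture and SVC after culture, the time since digestion differed between the arrays, and its part was not tested.

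Among 20 genes of the clock and of glucocorticoid response, 9 were called higher and 0 lower, with a median log2 ratio of 1.95. Zbtb16, a target of glucocorticoids, stood at -2.37 in SVC and 3.60 in MWA, 63.0-fold higher, and Tsc22d3 at 0.56 and 4.32, 13.5-fold higher. Pdk4, which spares glucose, was 39.9-fold higher. Among clock genes, Per2 stood at -2.36 and 1.68, 16.4-fold higher, while its second probe had 0.86 on the log2 scale, Per1 was 7.92-fold, Nr1d1 7.50-fold and Dbp 8.11-fold higher. Arntl, the activator that pairs with Clock, stood at -1.68 and -3.51, 3.56-fold lower and under the limit, and Clock was 1.54-fold higher.

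Of 28 chemokines and interleukins, 10 were called higher and 4 lower, with a median log2 ratio of 0.95. Il1b was at 2.88 in MWA and at least 228-fold higher, and Cxcl9, which interferon gamma induces, at 2.80 and at least 216-fold higher. Cxcl2 was 56.3-fold, Cxcl10 33.4-fold, Cxcl1 18.2-fold and Ccl5 12.4-fold higher. Lower in MWA were Cxcl5, at 2.33 in SVC and -3.50 in MWA, 56.9-fold, Il11 at 28.4-fold, Csf1 at 6.24 and 2.40, 14.4-fold, and Il1rn, the antagonist of the interleukin 1 receptor, at 11.03-fold. Of 24 interferon-stimulated genes, 5 were called higher and 0 lower, with a median log2 ratio of 1.19. Ifi27l2a stood at 4.12 and 8.93, 27.9-fold higher, and Isg15 at 2.24 and 3.41, 2.25-fold higher.

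Of 27 genes of glutathione and of the NRF2 response, 4 were called higher and 3 lower, with a median log2 ratio of 0.21. Lower in MWA were Nqo1, a quinone reductase, at 2.25 in SVC and -2.36 in MWA, 24.5-fold, and Slc7a11, the cystine importer, by at least 28.6-fold. Gclm and Txnrd1 were 4.66-fold and 4.95-fold lower. Gsta2 was at least 171-fold lower, and Gm10639, a neighbour of it on chromosome 9, 160.3-fold lower, but alpha class transferases have near-identical copies and these signals cannot be assigned to a single one. Of transferases of other classes, Gstt1 stood at 1.22 and 4.95, 13.2-fold higher, and Mgst3 was 9.36-fold higher. Nfe2l2, the gene of NRF2 itself, stood at 3.14 and 3.07, and its other probe gave a log2 ratio of 2.92.

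Of 34 genes of the TGF-beta and BMP pathways, 4 were called higher and 5 lower, with a median log2 ratio of -0.60. Inhba, the subunit of activin A, stood at 3.52 in SVC and -2.75 in MWA, 77.3-fold lower, and its antagonist Fst 5.60-fold lower. Ltbp2 stood at 6.77 and 1.16, 48.7-fold lower, and Grem1, a BMP antagonist, was at least 41.5-fold lower. Acvr1c, the receptor ALK7 of adipocytes, was at 3.27 in MWA and at least 299-fold higher, and Inhbb, the other activin subunit, was 4.05-fold higher. Tgfb1 stood at 1.65 and 0.64. In the Wnt pathway 4 of 28 genes were called higher and 5 lower, with a median log2 ratio of -0.51. Sfrp5, a secreted antagonist, stood at -4.25 and 3.71, 248-fold higher, and Wnt4 at 0.63 and -3.20, 14.3-fold lower. Of 15 genes of the IGF system, 4 were called higher and 1 lower, with a median log2 ratio of 0.85. Igfbp5 stood at -2.42 and 3.77, 73.1-fold higher, Ghr, the growth hormone receptor, was 24.9-fold higher, and Igf1 stood at 4.27 and 5.26.

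Of 29 Hox genes that could be read, 3 were called lower and 0 higher, with a median log2 ratio of -0.38, and the 3 (Hoxa10, Hoxb9 and Hoxc13) rest on bounds and lost their calls with the normexp correction. Hoxc8 and Hoxc9, of the trunk, stood at 1.32 and 1.64 in SVC and at 2.22 and 0.76 in MWA. All 49 ribosomal protein genes were lower in MWA in sign, and 0 were called in either direction. Their log2 ratios ran from -1.55 for Rps2 to -0.43 for Rps27, with a median of -0.99, which was -0.32 with quantile scaling.

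From the neuronal genes that the paper lists from these arrays, 27 were taken, which is not all of them. Of the 27, 24 could be read, 16 were called higher and 2 lower, with a median log2 ratio of 3.68. The paper chose them for differences between SVC, SPA and MWA on the same arrays, so the count is not independent evidence of a direction. Sncg, the gamma synuclein, stood at -0.02 in SVC and 7.47 in MWA, 179.8-fold higher. Nnat was 363-fold higher and Bche, the butyrylcholinesterase, 253-fold. The 2 lower ones were Nrcam, at 2.48 and -1.60, 16.9-fold, and Ecel1, by at least 18.5-fold at the probe read, although its other probe gave a log2 ratio of 0.89. With the normexp correction the 16 became 10. Ecel1 stood at 3.15 in SPA, and Nrcam at 3.44.

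The genes with the largest ratios included several outside these groups. On the higher side, Cyp2e1, a cytochrome P450, stood at -3.96 in SVC and 8.28 in MWA, 4851-fold higher, and Car3, the carbonic anhydrase abundant in fat, at -1.22 and 9.31, 1482-fold higher. Cyp2e1 on both arrays, and Car3 in MWA, had spots whose local background the scanner software marked as outlying. Adig, a small protein of adipocytes, was 1076-fold higher, Rbp7 1054-fold and Wfdc21 882-fold. Amy1, the salivary-type amylase, which has close copies, was 413-fold higher. Among the bounds, Serpina1a and Serpina1c, of the alpha-1 antitrypsin family, were higher by bounds of 2213-fold and 1892-fold, with signals shared by near-identical copies. A further Serpina1a probe, read on both arrays, gave 7.82 on the log2 scale. Tmem45b was at least 1442-fold and Slc7a10, a transporter of small neutral amino acids, at least 976-fold higher. The other probe of Slc7a10, measured on both arrays, gave a log2 ratio of 0.94.

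On the lower side, Cck, the gene of cholecystokinin, stood at 6.13 in SVC and -2.09 in MWA, 299-fold lower. Steap1, a metalloreductase, stood at 3.62 and -3.81, 172-fold lower, and Ncam1, an adhesion molecule, at 3.47 and -3.63, 136-fold lower. Slc1a6 was 105-fold and Kif1a, a motor of vesicles, 89.0-fold lower. Hmga2, a chromatin protein of growing mesenchyme, stood at 2.90 and -3.75, 99.9-fold lower, and Ccn4, a target of Wnt signals, was 94.5-fold lower. The transcript 3300005D01Rik was 60.5-fold lower, with an outlying local background in MWA. Among the bounds, Asic3, an acid-sensing channel, stood at 3.87 in SVC and was at least 519-fold lower in MWA, and its other probe gave a log2 ratio of -4.64. Npy, the gene of neuropeptide Y, stood at 1.98 and was at least 140.3-fold lower. Prl2c5 was at least 168-fold, Raet1e at least 167-fold, Gpr176 at least 119.6-fold, Serinc2 at least 97.6-fold and Lce1g at least 86.8-fold lower, and Prl2c5, Raet1e and Lce1g belong to families of similar copies. A transcript with no gene name, probed at chr9:78116834-78116893 (mm9, plus strand), was at least 116-fold lower.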

How the data were processed

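Agilent mouse gene expression arrays of 1 colour were used, with 60-base probes, 1 array for each of 3 groups, on 1 slide. The intensity files deposited by the authors hold spots read by Agilent Feature Extraction 10.7.3.1, whose processed signal is background-subtracted. The authors also deposited a table of values for each array, which is that processed signal as a ratio to a constant (largest relative departure 1.37e-06); its scaling constant is not given in the sources used here. The medians of these ratios were 0.0743 for SVC, 0.0783 for SPA and 0.0789 for MWA.

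Control spots and outlier spots were left out, and log2 of the processed signal minus the 75th percentile of the array was taken (Python 3.11.15, numpy 2.4.6, pandas 2.3.3). Spots with an outlying local background alone were kept, and that mark is given above for some of the genes it concerns, not all. Spots of 1 probe were averaged, and each gene was represented by the probe that was brightest on average across the 3 arrays. Probes not well above background gave a bound, the higher of their own level and the lowest level of a probe well above background. Calls needed 5-fold. The genes named were the 15 largest ratios measured on both arrays and the 10 largest bounds in each direction, and members of 43 gene lists; some list members, and Slc6a8, were chosen after their values were seen. The comparison and the lists were chosen with earlier results of these data known. Names were updated through RefSeq for 32994 of 56605 probes, of which 1535 changed. The code of the calling was run on simulated data, made from the SVC array with small added noise and bright genes shifted past the limit. That run leaves out the error of animals, cultures and arrays, so it says nothing on how reliable the calls are. Alternatives were normexp background correction (offset 50, limma 3.58.1 in R 4.3.3), quantile scaling, other scalings, filters, probe rules and fold limits. With 1 array a group, no test was possible, and the precision is limited by the number of arrays. Values of some genes are not reported here.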

Additional observations from a re-analysis of the deposited data

How the results depend on the processing

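The 5-fold counts of 1349 higher and 935 lower genes fell to 782 and 441 with normexp background correction. With a limit of 10-fold they were 697 and 354, and with 2-fold 4059 and 4259. Under the remaining 8 alternatives they stayed within 1.5 times, and 55.9% to 63.9% of calls were in the direction of MWA under every scaling, filter and probe rule. Of 323 genes named with a value, 22 were no longer past 5-fold with normexp, among them Ucp1 (log2 ratio 1.10), Ppargc1a (1.30), Lep (1.93), Pecam1 (2.16), Ciita (2.23) and the 3 Hox genes. With the median of a gene's probes, 7 were no longer past it, namely Lpl (1.72), Bcat1 (-2.24), Ciita (0.98), Cdk4 (-2.30), Col11a1 (-2.31), Col6a3 (2.06) and Ecel1 (-1.66). Smaller sets of genes close to the limit lost it elsewhere, such as Pkm (-1.66) and Cdk4 (-2.21) with quantile scaling, Lep (2.31) and Col4a1 (2.32) with the deposited ratios, and Plod2 (-2.03) without spots of outlying local background. Of 86 counts over the lists, 14 moved by over 1.5 times with normexp and 14 when both arrays had to measure a gene. With normexp, members called higher went from 6 to 2 for lymphocytes, from 5 to 0 for neutrophils and mast cells, from 5 to 2 for heat production, and from 4 to 2 for both the TGF-beta and Wnt lists. With genes measured on both arrays only they went from 11 to 4 for lipolytic receptors, from 6 to 2 for red cells and from 10 to 6 for chemokines. Direction turned for Col3a1, to -3.89 with the median of its probes, and for Ms4a1, to 2.60 without spots of outlying local background, and the cause was not tested. No paired analysis was possible because each group has 1 array. Signal over background limits the 408 higher and 194 lower calls that rest on a bound.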

Other observations

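Some of the genes called lay close to each other on the mm9 build, and as neighbours can share probe sequence or transcripts these are given as values only. A run was at least 4 genes called in the same direction, each within 100000 bases of the one before. Only some of the runs found are given. Each span goes from the first to the last called gene, so the shares within it are partly set by that choice. On chromosome 12, 6 of 6 genes around Serpina1 were called higher with log2 ratios from 5.60 to 11.11, and 7 of 11 around Serpina3 with 2.76 to 8.74. Both families hold near-identical copies. On chromosome 13, Ecm2, Aspn, Omd and Ogn, of which the last 3 encode small matrix proteoglycans, were all called higher, from 2.76 to 5.48. On chromosome 17, the complement genes C4b, C4a, Cfb and C2 with Notch4 and Prrt1 were higher, from 2.59 to 5.51, as 6 of 22 genes measured in that span. The guanylate-binding proteins, which interferon gamma induces, were higher in a group on chromosome 3 (Gbp7, Gbp3, Gbp2b and Gbp2, from 2.48 to 3.26) and in another on chromosome 5 with Gbp8, Gbp9 and Gbp4 (from 3.80 to 5.84). On chromosome 6, 5 Gimap genes of lymphocytes and endothelium were higher, from 3.01 to 5.67.

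On the lower side, 5 histone genes on chromosome 13 (H1f5, H3c11, H2ac22, H2ac23 and H2ac13) were called, with log2 ratios from -3.78 to -2.59, beside the S phase genes described above. In another span of chromosome 13, 4 of the 13 genes measured were called lower (H3c8, H1f3, H2bc7 and H2ac11), from -3.52 to -2.59. On chromosome 3, 5 neighbours of the Lce1 family of the skin barrier were lower, from -6.44 to -3.28, and are similar copies.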
